A study of Homo sapiens with 36 samples.

Results

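The comparison described here was between THP-1 cells with and without NR4A2 knockdown, all at 10% CO2 and all stimulated with LPS. THP-1 is a human monocytic leukaemia line. Both lines had been transduced with lentiviral particles, shNR4A2 cells with a hairpin RNA targeting NR4A2 and shNT cells with a non-target hairpin. Cells stood in buffered DMEM at 10% CO2 (buffered hypercapnia) for 4 h and received 2.5 µg/ml LPS, the bacterial endotoxin, for the last 2 h. The 6 libraries, 3 of shNR4A2 and 3 of shNT cells, were taken by their sample titles from the 36 of the series, which also holds shNR4A3 cells, 5% CO2 and cells without LPS. The measurement was the count of poly(A) RNA-seq reads per gene. Each hairpin is represented by 1 stable cell line, so a difference that follows the hairpin and a difference between the lines themselves cannot be told apart. Whether the lines are clones, and whether shNT and shNR4A2 libraries were sequenced in the same run, is not given in the sources used here.

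NR4A2 (Nurr1) is an orphan nuclear receptor, a transcription factor of the NR4A family with NR4A1 (Nur77) and NR4A3 (NOR1). The genes are immediate-early genes, transcribed within minutes to hours of inflammatory and stress signals, and the receptors act without a known natural ligand. They bind as monomers to an octamer called the NBRE, and in monocytes and macrophages they have been linked to the restraint of NF-kB target genes. The question the comparison answers is which transcripts differ in LPS-stimulated monocytic cells under hypercapnia when NR4A2 is depleted.

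Total counts in the 6 libraries were 18450090 to 22151327, and 25509 to 31026 genes had at least 1 read. The share of counts from the mitochondrial genome was 2.05% to 4.15%, highest in shNT replicate 2. Of 12 monocyte and THP-1 markers, all were detected, and their summed level was 3775 to 4097 TPM (a read count scaled by gene length and by library) in shNT and 3949 to 4600 TPM in shNR4A2 cells. Summed levels of the lists for T cells, B cells, erythroid cells and epithelial cells or fibroblasts were at most 10.8 TPM in any of the 6 libraries. The NK cell list reached 67.6 TPM, mostly from NKG7, which differed by -0.11 on the log2 scale (adjusted p = 0.673), and NCAM1.

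NR4A2 (GRCh38, chromosome 2, 156324432 to 156342348) was present at 43.97, 46.9 and 51.5 TPM in the shNT libraries and at 13.4, 16.5 and 16.0 TPM in the shNR4A2 libraries. All 3 knockdown libraries lay below all 3 controls. The mean in shNR4A2 cells was 32.2% of that in shNT cells, a log2 fold change of -1.67 (SE 0.09, adjusted p = 3.28e-07, edgeR's quasi-likelihood test with Benjamini-Hochberg adjustment over all genes tested). Without LPS at 10% CO2 the mean levels were 2.34 TPM in shNT and 1.18 TPM in shNR4A2 cells, against 47.5 ± 3.82 TPM and 15.3 ± 1.69 TPM (SD, n = 3) with LPS.

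Neither of the other receptors of the family was lower in shNR4A2 cells. NR4A3 stood at 30.6, 32.7 and 38.6 TPM in shNT cells and at 43.9, 62.7 and 48.2 TPM in shNR4A2 cells, with no overlap, and rose by 0.57 on the log2 scale (SE 0.11, adjusted p = 0.00296). At 5% CO2 with LPS its difference was 0.13 (SE 0.11). The interaction with CO2 had an unadjusted p of 0.0109 by edgeR's quasi-likelihood test and did not pass after adjustment. NR4A1 was at 13.8 ± 1.94 TPM (SD, n = 3) in shNT and 14.3 ± 2.67 TPM (SD, n = 3) in shNR4A2 cells, and its log2 difference of 0.03 (SE 0.11) did not pass the test. In shNR4A3 cells under the same treatment NR4A2 was at 36.1, 41.8 and 38.0 TPM, above every shNR4A2 library and below every shNT library. The difference between shNR4A3 and shNT cells was not tested.

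**Figure D1:**
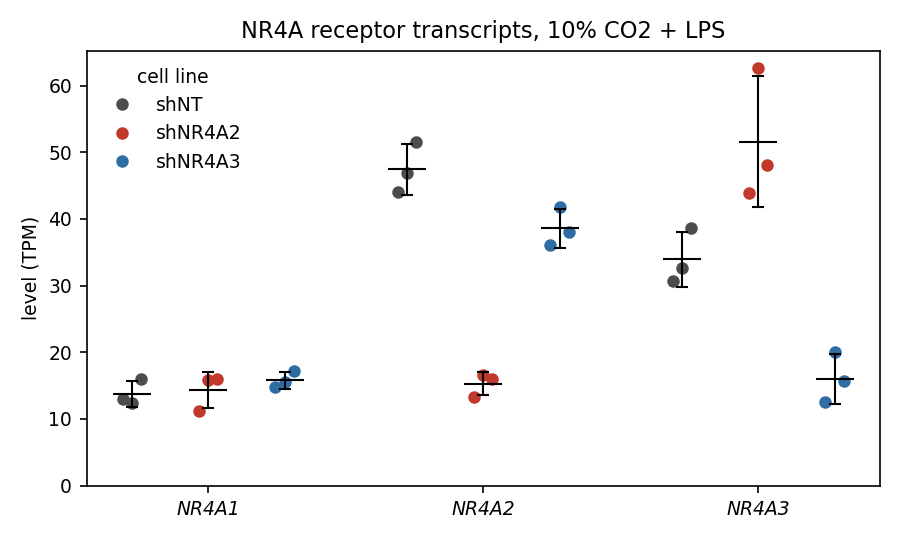
Level (TPM) of NR4A1, NR4A2 and NR4A3 in each library at 10% CO2 + LPS, by cell line; points are libraries, horizontal marks the mean and bars the SD of 3. NR4A2 is at 13.4 to 16.5 TPM in shNR4A2 cells against 43.97 to 51.5 TPM in shNT cells, and NR4A3 is lowest in shNR4A3 cells.

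Of 17720 genes tested, 3344 (18.9%) passed an adjusted p of 0.05. Transcripts were higher in shNR4A2 cells for 1647 genes (9.29%) and lower for 1697 (9.58%). The rises were larger: 541 of the higher genes differed at least 2-fold, against 128 of the lower, and 107 against 11 differed at least 4-fold. The median log2 fold change was 0.71 among higher and -0.44 among lower genes, and 0.00166 over all genes tested. The 3 libraries of one group all lay above or below the 3 of the other in CPM (counts scaled to the library total) for 35.7% of the genes tested. The number of calls rested in part on single libraries, with 1897 calls without shNT replicate 3 and 2072 without shNR4A2 replicate 3. A fit with the replicate number as a block called 6161 of the 17720 genes. Blocked values are given beside the genes named without a call that it adds and for some of the lists it moves. Other lists, such as the CC chemokines and the macrophage receptors, also gained calls with the block.

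**Figure D2:**
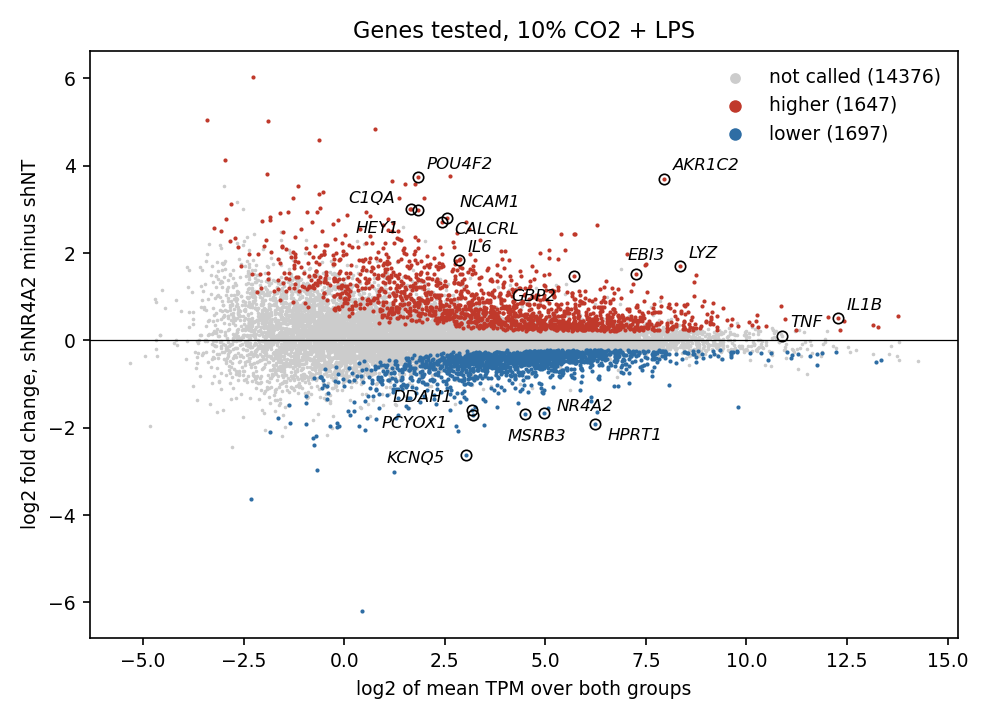
Log2 fold change (shNR4A2 minus shNT) of each gene tested against the log2 of its mean TPM over both groups, at 10% CO2 + LPS. Red points are the 1647 genes called higher and blue points the 1697 called lower; AKR1C2 is at 3.70 and NR4A2 at -1.67.

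Among genes called, without overlap between groups and with a mean of at least 5 TPM in the higher group, the 12 with the largest fold change in each direction were taken. AKR1C2 (chromosome 10, 4987400 to 5018031) combined a large change with a high level. AKR1C2, an aldo-keto reductase that reduces steroid hormones, was at 36.9, 34.1 and 32.8 TPM in shNT and at 432, 501 and 452 TPM in shNR4A2 libraries, a log2 fold change of 3.70 (SE 0.09, adjusted p = 1.24e-10). It was at 30.1 TPM on average in shNR4A3 cells. Its neighbours in the cluster, AKR1C1 and AKR1C3, changed by 1.37 (adjusted p = 1.87e-05) and 0.96 (adjusted p = 0.000829). The paralogs are close in sequence, and reads could be split between them by the counting. The antisense transcript ENSG00000224251 lies inside AKR1C2 (4995488 to 4997380, other strand) and also rose, by 3.59, but the strand setting is not given, so its reads cannot be told apart from those of AKR1C2.

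Most other large rises were of genes nearly silent in shNT cells. POU4F2, a homeodomain transcription factor known from retinal ganglion cells, went from 0.347, 0.387 and 0.696 TPM to 6.10, 7.22 and 6.70 TPM (log2 3.74, SE 0.25, adjusted p = 1.22e-06). NCAM1, the adhesion molecule CD56, went from 1.56, 1.22 and 1.53 TPM to 8.04, 10.1 and 12.7 TPM (log2 2.81, SE 0.15). C1QA, a chain of the complement component C1q, and HEY1, a Notch-responsive repressor, rose by 3.00 (SE 0.38) and 2.99 (SE 0.26). CALCRL, the receptor subunit for calcitonin gene-related peptide and adrenomedullin, rose by 2.72 (SE 0.29), and ADM, which encodes adrenomedullin, rose by 1.64 (SE 0.19, adjusted p = 9.63e-05). The rest of the 12 largest were C22orf42, the long non-coding RNAs BHLHE22-AS1 and ENSG00000203364, and the pseudogenes TREML3P and DAP3P1, whose reads may be shared with near-identical copies. TREML3P and DAP3P1 were uneven among the shNR4A2 libraries, at 3.33 and 1.30 TPM in replicate 1 against 14.4 and 8.36 TPM in replicate 2.

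On the lower side, KCNQ5, a voltage-gated potassium channel, fell furthest at this level, from 12.6, 13.3 and 15.8 TPM to 1.84, 2.74 and 2.35 TPM (log2 -2.62, SE 0.13, adjusted p = 1.61e-07). HPRT1 (chromosome X, 134460153 to 134520513), the purine salvage enzyme often used as a reference gene in quantitative PCR, was at 109, 121 and 123 TPM in shNT and at 30.0, 36.3 and 29.7 TPM in shNR4A2 libraries. That is a log2 fold change of -1.91 (SE 0.10, adjusted p = 2.29e-07), larger in size than the change of NR4A2, and shNR4A3 cells stood at 127 TPM. The other genes of the set were FAM163A, LINC01088, PCYOX1 (prenylcysteine oxidase), MSRB3 (a methionine sulfoxide reductase), ALX1 (a homeobox transcription factor), DDAH1 (which breaks down asymmetric dimethylarginine), CERKL, DSG2 (a desmosomal cadherin) and ENSG00000227220, which fell by 1.55 to 2.07 on the log2 scale.

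Genes were also grouped by their response to LPS, a grouping made after the values had been seen. LPS responses were taken from shNT cells at 5% CO2, which are not in the comparison, as a ratio of mean CPM (0.5 added) of at least 2. Of 545 genes raised by LPS there, 237 (43.5%) were higher and 19 (3.49%) lower in shNR4A2 cells at 10% CO2 with LPS, with a median log2 fold change of 0.39. Of 506 genes lowered by LPS, 33 (6.52%) were higher and 59 (11.7%) lower, with a median of -0.06. Genes within 2-fold, 16669 in all, had 8.26% higher and 9.71% lower. The LPS-raised genes also had a higher median level in shNT cells, 15.8 TPM against 8.46 TPM for those within 2-fold, and the part of level in this share was not tested. In resting cells at 10% CO2 the median log2 fold change of the same 545 genes was 0.14.

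In the IL-1 family list, which holds cytokines and receptor chains, 6 of 10 tested members rose and none fell, with a median log2 fold change of 0.50. For this and the lists below, the shares over all genes tested were 9.29% higher and 9.58% lower. IL1B, the principal pyrogenic cytokine of monocytes, was at 4660, 3670 and 3825 TPM in shNT and at 7071, 5320 and 5197 TPM in shNR4A2 libraries. Its groups did not overlap, and the difference of 0.51 (SE 0.16, adjusted p = 0.0493) lay close to the threshold. IL1RN, the antagonist of the IL-1 receptor, rose by 1.06 (SE 0.18) from 28.3, 17.2 and 24.2 TPM to 55.8, 42.5 and 49.4 TPM. IL18R1, a chain of the IL-18 receptor, rose by 1.04 (SE 0.18), IL33 by 1.28 (SE 0.27), IL36G by 1.98 (SE 0.35) and IL18 by 0.48 (SE 0.12). IL1A, at 353 TPM on average in shNT cells, had a log2 difference of 0.28 with an adjusted p of 0.49 (0.000163 with the replicate block).

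The other inflammatory mediators were divided. TNFSF15 (TL1A), a ligand that costimulates T cells, was at 4.03, 2.84 and 3.48 TPM in shNT and at 18.4, 16.1 and 17.2 TPM in shNR4A2 libraries (log2 2.29, SE 0.13, adjusted p = 3.28e-07). LTA, lymphotoxin alpha, rose by 1.48 (SE 0.13) and TNFSF10 (TRAIL) by 1.18 (SE 0.22), while CD70 fell by 0.39 (SE 0.08). TNF itself did not pass the test, at 1806 TPM on average in shNT cells with a log2 difference of 0.11 (adjusted p = 0.49). In all, 3 of 12 TNF superfamily ligands rose and 1 fell (33.3% called, against 18.9% over all genes tested).

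IL6 and EBI3 were the members that rose among 11 cytokines of the IL-6, IL-10, IL-12 and colony-stimulating factor families, and LIF fell by 0.43 (SE 0.12). IL6 was low, at 4.30, 2.86 and 2.34 TPM in shNT and 15.8, 7.51 and 10.7 TPM in shNR4A2 libraries (log2 1.83, SE 0.34, adjusted p = 0.00501). EBI3, the beta subunit of IL-27 and IL-35, went from 66.2, 100 and 64.4 TPM to 185, 252 and 245 TPM (log2 1.52, SE 0.22, adjusted p = 0.00379). IL23A, a subunit of IL-23 at 1415 TPM in shNT cells, and IL12B, the subunit it pairs with, at 112 TPM, had log2 differences of 0.29 (adjusted p = 0.37) and 0.42 (adjusted p = 0.17), the latter passing with the replicate block (adjusted p = 0.000193).

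None of the 9 CXC chemokines tested passed the threshold, although their median was 0.26. CXCL8, the neutrophil attractant IL-8, stood at 4675 TPM on average in shNT cells with a log2 difference of -0.13 (adjusted p = 0.61). CXCL1 came closest, at 0.40 (adjusted p = 0.06, or 5.9e-08 with the replicate block). Under the block 3 of the 9 were higher and 2 lower, against 6161 calls among all 17720 genes tested. Of 11 CC chemokines, CCL5 (RANTES) rose by 0.36 (SE 0.08), from 722, 627 and 702 TPM to 856, 881 and 942 TPM. CCL24 rose by 0.89 (SE 0.25), and CCL23 fell by 0.47 (SE 0.15).

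**Figure D3:**
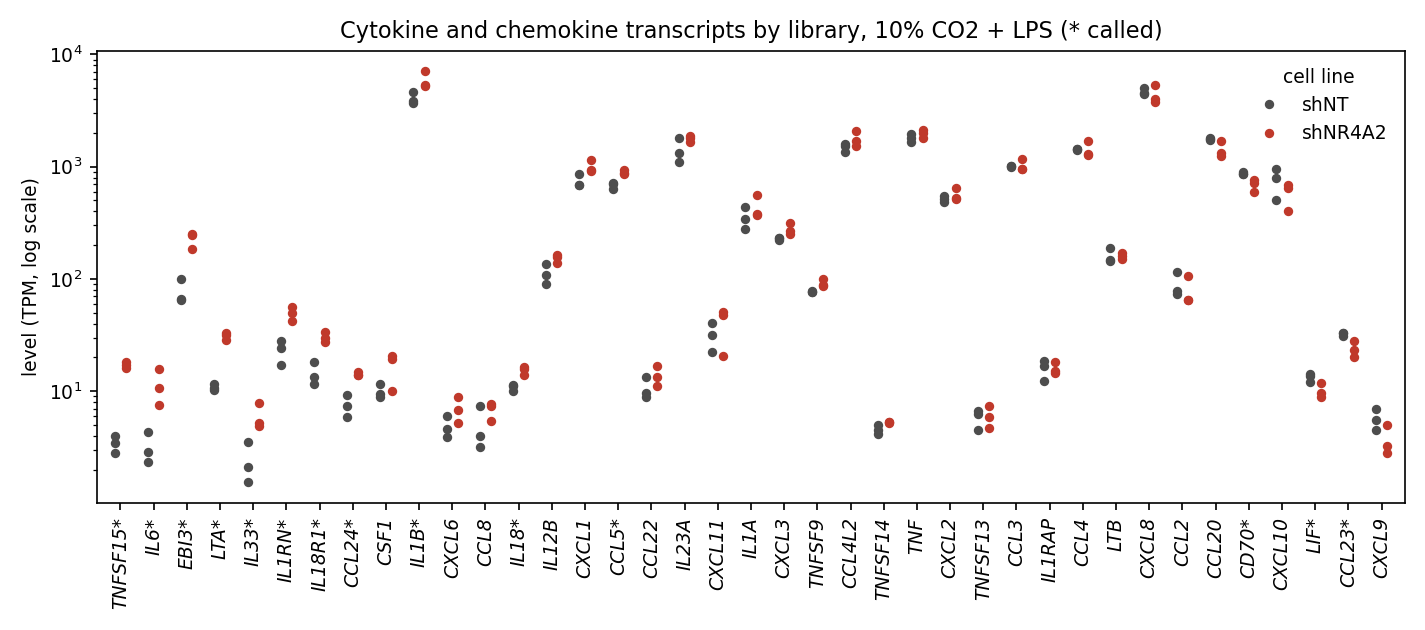
Level (TPM, log scale) of cytokine and chemokine transcripts with a mean of at least 5 TPM in either group, by library, ordered by log2 fold change from the left; an asterisk marks genes called. TNFSF15, IL6, EBI3 and LTA are separated between shNT (grey) and shNR4A2 (red) cells, whereas TNF and CXCL8 overlap.

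At the receptor for LPS itself, changes went both ways. TLR4, the signalling receptor, was at 26.2, 16.1 and 25.4 TPM in shNT and at 14.9, 11.7 and 12.3 TPM in shNR4A2 libraries (log2 -0.82, SE 0.18, adjusted p = 0.0119). CD14, the co-receptor that hands LPS on, went from 13.3, 7.47 and 12.1 TPM to 33.9, 18.002 and 23.8 TPM (log2 1.19, SE 0.29, adjusted p = 0.0266), and LY96 (MD-2), which binds lipid A beside TLR4, rose from below 2 TPM to 3.20 to 3.53 TPM (log2 1.91, SE 0.60, adjusted p = 0.0425). Of the proximal signalling genes, TAB2, IRAK2 and the adaptor TICAM1 (TRIF) rose by 0.67, 0.66 and 0.42, and IRAK3 (IRAK-M), an inhibitor of the pathway, fell by 0.27. The adaptor MYD88 had a difference of 0.03 (adjusted p = 0.86). In total 5 of 16 rose and 2 fell.

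In the NF-kB pathway, 9 of 21 genes rose and none fell, with a median of 0.26. They were mostly feedback and accessory members. BCL3, a nuclear IkB protein, rose by 0.85 (SE 0.13) from 49.2, 44.6 and 38.8 TPM to 88.3, 71.3 and 84.7 TPM, and TRAF1 rose by 1.03 (SE 0.15). The A20-binding inhibitors TNIP3, TNIP2 and TNIP1 rose by 1.12, 0.55 and 0.36, NFKBIE (IkB epsilon) by 0.38, BIRC3 by 0.43 and the kinase IKBKB by 0.27. NFKB2 was the subunit that passed, at 0.42 (SE 0.08). NFKBIA and TNFAIP3 (A20), the inhibitors with the highest levels at 1577 and 974 TPM in shNT cells, had differences of 0.08 (adjusted p = 0.62) and 0.12 (adjusted p = 0.61), and those of RELA and REL were 0.17 (adjusted p = 0.16) and -0.07 (adjusted p = 0.70). With the replicate block 16 of the 21 were higher, RELA among them (adjusted p = 0.0174), against 6161 calls in either direction among all 17720 genes tested.

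Early-response transcription factors other than the NR4As rose in 7 of 21 cases and fell in none. EGR2 went from 73.8, 72.8 and 81.7 TPM to 120, 139 and 128 TPM (log2 0.73, SE 0.07, adjusted p = 2.13e-05). KLF10, the AP-1 member FOSL1, JUNB, IER3, MAFF and KLF6 rose by 0.72, 0.73, 0.38, 0.46, 0.38 and 0.33. EGR1, JUN and ATF3 had differences of -0.07, 0.10 and 0.04, with adjusted p of 0.61, 0.39 and 0.88. Of 11 dual-specificity phosphatases, which inactivate MAP kinases, DUSP5 rose by 1.08 (SE 0.12), DUSP6 by 1.04 (SE 0.21), DUSP1 by 0.74 (SE 0.13) and DUSP7 by 0.32 (SE 0.08), and none fell.

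In the MHC class II pathway 6 of 13 rose, none fell, and all 13 had a positive difference, with a median of 0.57. HLA-DRB1, a beta chain, was at 180, 159 and 173 TPM in shNT and at 302, 308 and 287 TPM in shNR4A2 libraries (log2 0.78, SE 0.08, adjusted p = 2.77e-05). HLA-DRA, its alpha chain, rose by 0.93 (SE 0.19), HLA-DRB5 by 0.90 (SE 0.10), HLA-DPA1 by 0.79 (SE 0.24), HLA-DMA by 0.57 (SE 0.17) and the invariant chain CD74 by 0.48 (SE 0.08). CIITA, the coactivator that drives class II transcription, was at 0.2 TPM in shNT cells, too low to be informative.

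In the class I pathway 7 of 15 rose. HLA-B went from 532, 482 and 490 TPM to 890, 892 and 791 TPM (log2 0.74, SE 0.09, adjusted p = 0.000121), and HLA-C and HLA-E rose by 0.66 and 0.53. NLRC5, the class I coactivator, rose by 0.42 (SE 0.10), and the immunoproteasome subunit PSMB9 by 0.39 (SE 0.11). HLA-F was low, at 0.837, 0.881 and 0.684 TPM in shNT and 4.38, 3.75 and 4.36 TPM in shNR4A2 libraries. ERAP1, which trims peptides for class I molecules, fell in contrast, from 32.8, 30.6 and 34.4 TPM to 14.1, 15.5 and 14.7 TPM (log2 -1.18, SE 0.07, adjusted p = 7.38e-07). HLA genes resemble one another and vary between cell stocks, so reads could be shared between them.

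Of 34 interferon-stimulated genes 6 rose and none fell (17.6% called, against 18.9% over all genes tested), with a median of 0.41. With the replicate block 24 were higher and none lower, against 6161 calls in either direction among all 17720 genes tested. GBP2, an interferon-induced GTPase, was the clearest, from 26.6, 27.5 and 27.8 TPM to 72.5, 83.1 and 78.3 TPM (log2 1.48, SE 0.07, adjusted p = 1.86e-07). GBP1, OASL, RIGI, IRF1 and IFI35 rose by 1.26, 0.62, 0.45, 0.44 and 0.44. IFIT1, ISG15, MX1 and OAS1, commonly used readouts of type I interferon, had differences between 0.33 and 0.56 with adjusted p of 0.35 to 0.50 (with the block, 7.61e-06 for IFIT1, 2.65e-05 for ISG15, 0.00194 for MX1 and 0.00235 for OAS1), and IFNB1 one of -0.82 (adjusted p = 0.19).

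Of 24 macrophage receptors, 12 rose and none fell, with a median of 0.75. ICAM1, an adhesion molecule induced by NF-kB, went from 286, 226 and 239 TPM to 473, 413 and 450 TPM (log2 0.80, SE 0.11, adjusted p = 0.00027). CD83 and TREM2 rose by 0.55 and 0.51 from high levels. The lectins CD209 and CLEC4E rose by 2.05 and 1.53, the scavenger receptors MARCO, CD36 and OLR1 by 1.89, 1.55 and 0.80, the inhibitory Fc receptor FCGR2B by 1.86, TLR8 by 1.65, and the costimulatory proteins CD80 and CD40 by 0.82 and 0.35. CD209 varied within both groups, at 9.06, 3.31 and 4.85 TPM in shNT and 33.3, 15.8 and 22.6 TPM in shNR4A2 libraries, with replicate 2 lowest in each.

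Integrins and adhesion receptors rose in 10 of 17 cases, with a median of 0.65. ITGB2 (CD18), the beta chain of the leukocyte integrins, went from 366, 317 and 351 TPM to 590, 590 and 635 TPM (log2 0.78, SE 0.08, adjusted p = 3.48e-05). Its alpha chain partners ITGAL (CD11a), ITGAM (CD11b) and ITGAX (CD11c) rose by 1.27, 0.82 and 0.84. CD44, the hyaluronan receptor, rose by 0.80 and PECAM1 by 0.72. ITGA4, the alpha chain of VLA-4, was the member that fell, from 27.6, 26.2 and 31.0 TPM to 12.1, 12.7 and 13.7 TPM (log2 -1.17, SE 0.08, adjusted p = 1.34e-06).

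LYZ, the lysozyme of monocytes, was at 169, 131 and 153 TPM in shNT and at 521, 478 and 500 TPM in shNR4A2 libraries (log2 1.70, SE 0.10, adjusted p = 3.28e-07). CSF1R, the receptor for macrophage colony-stimulating factor, rose by 1.08 (SE 0.18). Of the granule proteases of monocyte and granulocyte progenitors, ELANE, PRTN3 and AZU1, at 3447, 1842 and 2385 TPM in shNT cells, had differences of -0.29, -0.58 and -0.20 with adjusted p of 0.09, 0.16 and 0.24, and all passed with the replicate block (8.34e-05, 4.33e-13 and 0.00672). SRGN, the granule proteoglycan, fell by 0.45 (SE 0.09). In the list of 10 that holds these genes and LYZ, 1 rose and 1 fell, and with the block 1 was higher and 5 lower. MPO, RNASE2, RNASE3 and CFD passed in neither fit, with adjusted p of 0.99, 0.71, 0.96 and 0.82 without the block.

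Transcription factors of blood cell development changed in both directions, with 7 of 25 higher and 5 lower and a median of 0.02. IRF8 rose from 213, 189 and 201 TPM to 309, 351 and 374 TPM (log2 0.74, SE 0.08, adjusted p = 4.41e-05), SPI1 (PU.1) by 0.46 and MAF by 1.80. IKZF1, MYC and CEBPD also rose, by 0.29, 0.46 and 0.45, the last without a call under the replicate block (adjusted p = 0.317). HOXA10 fell from 42.1, 39.5 and 48.3 TPM to 26.5, 28.2 and 27.5 TPM (log2 -0.69, SE 0.08, adjusted p = 9.63e-05), GFI1 by 0.70, LMO2 by 0.61, FLI1 by 0.59 and MYB by 0.39. Members without a call included CEBPA (0.02), RUNX1 (-0.22) and HOXA9 (-0.24), with adjusted p of 0.90, 0.16 and 0.11. With the replicate block RUNX1 and HOXA9 passed as lower (adjusted p = 0.00163 and 0.0108) and CEBPA did not. In the cell-cycle list the calls were near the shares over all genes tested (9.58% lower, 9.29% higher): 3 of 29 fell, the cyclins CCNA2, CCNB1 and CCNB2, and 2 rose, CCND1 (log2 1.14, SE 0.09) and the cyclin-dependent kinase inhibitor CDKN1A (p21, log2 0.89, SE 0.08). MKI67, the Ki-67 antigen of dividing cells, differed by 0.01 (adjusted p = 0.95).

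**Figure D4:**
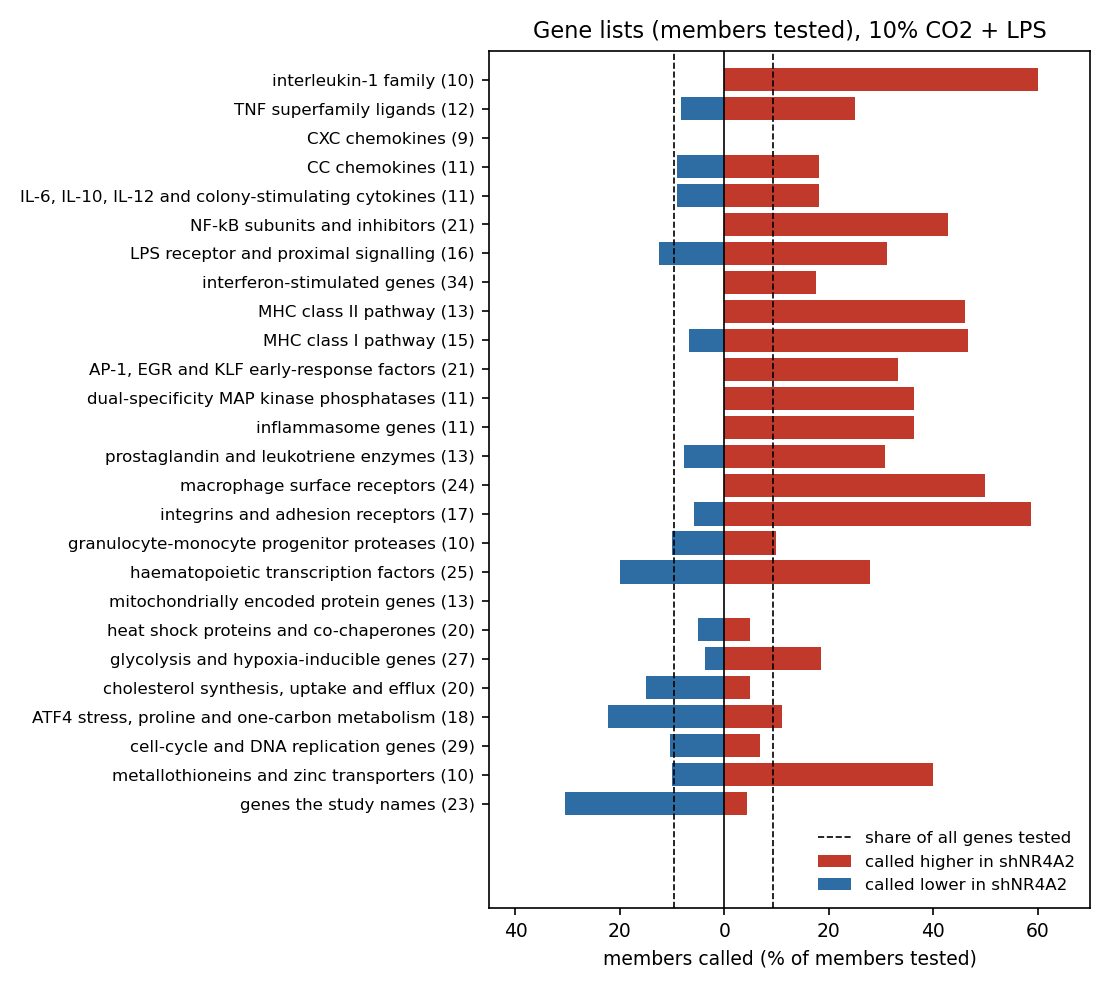
Share of the tested members of each gene list called higher (red, to the right) or lower (blue, to the left) in shNR4A2 cells, in percent of members tested (number in parentheses); dashed lines mark 9.29% higher and 9.58% lower over all genes tested. Macrophage receptors and NF-kB genes have calls to the right and none to the left, and CXC chemokines and mitochondrially encoded genes have no call.

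Smaller groups followed. Among inflammasome genes 4 of 11 rose and none fell, namely CASP5, NLRP1, MEFV (pyrin) and the adaptor PYCARD (ASC), by 1.69, 0.88, 0.82 and 0.30. Among prostaglandin and leukotriene genes TBXAS1 (thromboxane synthase), PTGER2, PTGS1 (COX-1) and ALOX5AP rose by 0.87, 0.72, 0.68 and 0.59, and PLA2G4A, the phospholipase that releases arachidonic acid, fell by 0.86. PTGS2 (COX-2), at 100 TPM in shNT cells, differed by -0.28 (adjusted p = 0.48). Metallothioneins MT1M, MT1X, MT1E and MT1F rose by 1.48, 0.75, 0.51 and 0.36, with near-identical paralogs, and the zinc importer SLC39A10 fell by 0.63.

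In the glycolysis and hypoxia list PKM, HK1, PFKFB3 and PFKP rose by 0.46, 0.52, 0.45 and 0.30 beside ADM, HK2 fell by 0.43, and 21 of 27 did not pass. In cholesterol metabolism SC5D, HMGCS1 and IDI1, enzymes of synthesis, fell by 1.19, 0.88 and 0.43, and INSIG1, which holds back the pathway, rose by 0.76 (SE 0.08). In that list 16 of 20 genes did not pass. Its median log2 fold change was 0.12, with a positive difference in 15 of the 20, so the list as a whole was not lower. SC5D was at 20.7, 16.3 and 21.3 TPM in shNT and at 9.75, 8.25 and 7.89 TPM in shNR4A2 libraries. Of 18 genes of the ATF4 stress programme, PYCR1, CHAC1, ALDH18A1 and VLDLR fell by 0.26 to 0.53, and SLC7A11, the cystine transporter, and PHGDH rose by 0.71 and 0.26. In the list of 20 chaperone genes, BAG3 rose by 0.33 and SERPINH1 fell by 0.28. With the replicate block, 12 of 27 glycolysis and hypoxia genes were higher and 3 lower, 8 of 20 cholesterol genes higher and 4 lower, 8 of 11 inflammasome genes higher and none lower, 3 of 20 chaperone genes higher and 6 lower, and 4 of 29 cell-cycle genes higher and 8 lower. Over all genes tested the block called 6161 of 17720 in either direction.

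TFAM, the nuclear-encoded factor that packages and transcribes mitochondrial DNA, was lower, at 42.4, 44.6 and 46.3 TPM in shNT and 29.2, 30.8 and 25.7 TPM in shNR4A2 libraries (log2 -0.67, SE 0.09, adjusted p = 0.000258). Of the 13 protein genes encoded in mitochondrial DNA, 12 had a negative difference, with a median of -0.31, but none passed the test. MT-ATP6 showed the lowest, at -0.47 (adjusted p = 0.34). The mitochondrial share was 2.28% to 4.15% of counts in shNT and 2.05% to 2.88% in shNR4A2 libraries, and these ranges overlap.

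Of a list of 23 genes taken from those the study discusses, which does not hold all of them, 7 fell and 1 rose, and since the study chose them on these samples the count is not independent evidence of a direction. WNT7B, a Wnt ligand, rose by 1.30 (SE 0.16) from 3.56, 2.89 and 4.86 TPM to 8.204, 9.20 and 11.1 TPM. SLC16A9, a carrier of the monocarboxylate transporter family, fell by 0.94 (SE 0.18), and CD38, SLC17A5, POLR1A and RRP9 fell by 0.44, 0.47, 0.30 and 0.24, with TFAM and SERPINH1 as above. NLRP3 (0.26), ALDH1B1 (-0.20), CACNA2D3 (-0.46), SLC6A6 (0.92), DPP8 (-0.23), ATP2A1 (0.59), SRSF5 (0.13), SLAMF1 (0.27), DPH5 (-0.17), SLC39A14 (0.11), CYTH2 (0.12), A4GALT (-0.28), CAMK2G (0.12), SLC39A8 (0.08) and SERPINB2 (-0.19) did not pass, with adjusted p from 0.06 to 0.65. With the replicate block 6 of these passed, SLC6A6, NLRP3, ALDH1B1, DPP8, CACNA2D3 and ATP2A1, with adjusted p of 4.02e-09, 0.00376, 0.00429, 0.00777, 0.0114 and 0.0423.

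The knockdown effect was then set against that at 5% CO2 with LPS, as an interaction over 12 libraries. No gene passed (0 of 17720 by edgeR's quasi-likelihood test, with 458 at an unadjusted p under 0.05, and 0 by DESeq2). AKR1C2 differed by 3.70 at 10% and 3.63 at 5% CO2, HPRT1 by -1.91 and -2.10, KCNQ5 by -2.62 and -2.33, TNFSF15 by 2.29 and 2.31, and IL6 by 1.83 and 1.67. The smallest unadjusted p values belonged to the pseudogenes ENSG00000228477 and CYP4F33P, the antisense RNA CD44-AS1, the kinase gene DAPK1 and the long non-coding RNA ENSG00000184441. CD44-AS1 was 1.86 higher in shNR4A2 cells at 10% and 0.47 higher at 5% CO2, and DAPK1, a calcium/calmodulin-regulated death-associated kinase, 0.80 and 0.21 higher, with an adjusted p of 1 for both differences. CD44-AS1 overlaps CD44, and without a known strand setting their reads cannot be told apart.

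Against resting cells at 10% CO2, again with 12 libraries, the effect differed for 8 genes (0.0451% of those tested), 7 more positive with LPS (0.0395%) and 1 more negative (0.00564%), with 735 at an unadjusted p under 0.05. Leaving out shNT 10% CO2 + LPS replicate 3 left 5 calls and leaving out shNR4A2 10% CO2 replicate 2 gave 16. CXCR4, the receptor for the chemokine CXCL12, turned round: with LPS it was at 29.9, 26.0 and 32.0 TPM in shNT and 16.9, 13.8 and 13.1 TPM in shNR4A2 libraries (log2 -1.03), and without LPS it averaged 27.8 TPM in shNT and 48.8 TPM in shNR4A2 cells (log2 0.79). CXCL12 itself, looked up after these values were seen, was 1.04 higher in shNR4A2 cells with LPS (adjusted p = 0.000647). SERPINE2, a protease inhibitor (protease nexin-1), was near 2.5 to 2.8 TPM in both resting lines and reached 74.9, 89.9 and 79.8 TPM with LPS in shNT and 258, 300 and 281 TPM in shNR4A2 libraries, a log2 difference of 1.74 with LPS and 0.19 without. MYC, the growth-promoting transcription factor, was lower in resting shNR4A2 cells (log2 -0.72) and higher with LPS (0.46). PDSS1, RAPGEF2, C11orf96 and the long non-coding RNA ENSG00000277969 also had a more positive effect under LPS.

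**Figure D5:**
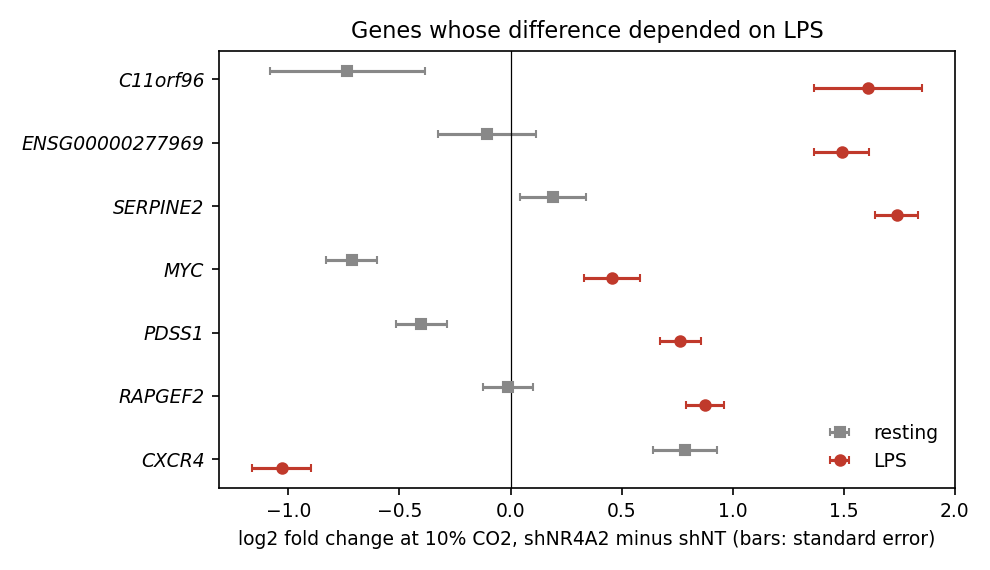
Log2 fold change (shNR4A2 minus shNT) at 10% CO2 of 7 of the 8 genes whose effect differed with LPS, in LPS-stimulated (red circles) and resting (grey squares) cells; bars are standard errors. CXCR4 moves from 0.79 at rest to -1.03 with LPS, and the other 6 plotted are more positive with LPS.

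To set NR4A2 knockdown against knockdown of its relative, shNR4A2 cells were compared directly with shNR4A3 cells at 10% CO2 + LPS, without the shNT libraries. Here 1070 genes (6.04%) passed, 582 (3.28%) higher and 488 (2.75%) lower in shNR4A2 cells. Of the 1647 genes called higher against shNT cells, 299 were also called higher than in shNR4A3 cells and 30 lower. Of the 1697 called lower, 275 were also called lower and 21 higher. Both comparisons use the same shNR4A2 libraries, so these counts are not independent. AKR1C2 was higher by 3.93 (SE 0.10, adjusted p = 4.33e-11), and HPRT1 and SESN3, a sestrin of the stress response, were lower by 1.99 (SE 0.09) and 1.72 (SE 0.09). IGFBP7, an insulin-like growth factor binding protein, and PRDM6 were lower in shNR4A2 cells by 1.77 and 3.49, where shNR4A3 cells averaged 253 and 8.90 TPM. Among the 12 largest changes each way, TREML3P, C1QA, DAP3P1, NCAM1, CALCRL, ENSG00000203364, FAM163A, ENSG00000227220 and DSG2 did not pass here. MSRB3 was 0.83 higher in shNR4A2 than in shNR4A3 cells, and the others passed in the same direction as against shNT cells. Calls against shNR4A3 cells were also counted by list, as higher and lower in shNR4A2 cells. They were 0 and 1 of 21 NF-kB genes, 0 and 0 of 11 inflammasome genes and 1 and 2 of 17 integrins and adhesion receptors. For 34 interferon-stimulated genes they were 1 and 4, for 24 macrophage receptors 3 and 1, and for 15 MHC class I genes 6 and 1. Single members of the lists above differed between the knockdown lines: ITGA4 by -1.55 (SE 0.09, adjusted p = 2.41e-07), ERAP1 by -1.23, HLA-F by 2.17, TNFSF15 by 1.22 and WNT7B by 2.23. BCL3 (-0.22, adjusted p = 0.49), IL1B (0.06, adjusted p = 0.90), EBI3 (-0.06, adjusted p = 0.86) and IL6 (0.03, adjusted p = 0.99) did not pass. Leaving out 1 library gave 493 calls without shNR4A2 replicate 3, 553 without shNR4A3 replicate 2 and 605 without shNR4A2 replicate 2.

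Promoters were searched for the NBRE octamer, AAAGGTCA or TGACCTTT on the other strand, in windows of 300 bases around RefSeq gene starts (GRCh38.p14), which were found for 12094 of the tested genes by symbol. The octamer was present in 1.21% of all 27305 promoters and in 0.777% of those of the 12094 tested genes. Among the tested genes it was present in 0.505% of 1189 higher, 0.941% of 1381 lower and 0.787% of 9524 genes not called. A match describes letters in a window and not binding. The 4 called genes shown as examples have a match before the start site and are lower in shNR4A2 cells. They had the smallest adjusted p in a listing that did not hold every called gene with a match. A called gene outside that listing may have a smaller value. The octamer is in capitals, each line is 5′ to 3′ on the gene's strand.
GAS5 (chr1:173869097-173869144, minus strand): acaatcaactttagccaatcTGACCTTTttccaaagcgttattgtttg
ADSS2 (chr1:244452133-244452180, minus strand): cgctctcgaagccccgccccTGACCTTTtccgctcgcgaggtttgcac
FASTKD2 (chr2:206765536-206765583, plus strand): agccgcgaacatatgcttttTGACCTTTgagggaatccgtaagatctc
AGMAT (chr1:15585064-15585111, minus strand): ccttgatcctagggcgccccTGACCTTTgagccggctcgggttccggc
GAS5 is a long non-coding RNA that hosts small nucleolar RNAs, ADSS2 makes adenylosuccinate, FASTKD2 is a mitochondrial RNA-binding protein and AGMAT is an agmatinase. Their log2 fold changes were -0.61, -0.48, -0.47 and -0.72. In each the octamer lay 32 to 92 bases before the start, and it is written in the reverse-complement orientation in all 4.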

How the data were processed

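RNA of stable THP-1 lines was sequenced as poly(A) libraries. Per the labels and methods, the authors used Trimmomatic 0.36 for trimming and STAR 2.5.2b for alignment (GRCh38), and deposited raw counts of uniquely assigned reads per gene from featureCounts (Subread 1.5.2). The annotation release and strand setting are not given in the sources used here. Of 57500 gene identifiers 98.1% were matched to a symbol. TPM used the length column beside the counts. Genes passing filterByExpr over 36 libraries (minimum count 10, total 15) were tested with edgeR 4.0.16 (R 4.3.3; TMM, robust quasi-likelihood F test, Benjamini-Hochberg adjustment, called at adjusted p under 0.05). SE was the log2 fold change over the square root of F. DESeq2 1.42.0, the study's tool, was an alternative, with other scalings, filters, a replicate block and each library left out. Scripts were tested on simulated data. Replicates are described as individual experiments. An exact permutation test of 3 against 3 cannot go below p = 0.1, so none is given. The members and gene lists were chosen with earlier results of these data known. Named were the NR4A genes, the 12 largest changes each way, called list members and genes with the smallest p in the other comparisons; list members named without a call, and called ones beyond 5 a direction, were picked after their values were seen. Some genes counted in the totals are not reported here by name.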

Additional observations from a re-analysis of the deposited data

Results flagged for a closer look

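For 8 genes the difference between shNR4A2 and shNT cells at 10% CO2 was not the same with LPS as without it, by the interaction term of edgeR's quasi-likelihood test. CXCR4 had an interaction of -1.81 on the log2 scale (SE 0.21, adjusted p = 0.000721) and was the gene with the opposite sign from the rest. SERPINE2 had one of 1.55 (SE 0.19, adjusted p = 0.000721) and C11orf96 2.35 (SE 0.42, adjusted p = 0.0417). For MYC it was 1.18 (SE 0.16, adjusted p = 0.00327), with resting means of 406 TPM in shNT and 252 TPM in shNR4A2 cells. PDSS1, an enzyme of coenzyme Q synthesis, had 1.17 (SE 0.16, adjusted p = 0.00231), RAPGEF2, an exchange factor for Rap proteins, 0.90 (SE 0.16, adjusted p = 0.0407) and the long non-coding RNA ENSG00000277969 1.60 (SE 0.26, adjusted p = 0.0187).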

How the results depend on the processing

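The number of genes called between shNR4A2 and shNT cells (3344) became 6161 with a replicate block, 1618 at an adjusted p of 0.01 and 1808 with a fold change of at least 1.4, and 1897 to 3745 with 1 library left out. It was 2898 with DESeq2, 2783 of them (83.2% of the 3344) shared. The LPS interaction (8 genes) gave 50 calls with DESeq2, 63 with no filter, 74 with the block and 5 to 16 with 1 library left out; the CO2 interaction gave 2 with no filter. The comparison with shNR4A3 cells (1070) gave 2876 with the block and 493 to 1210 with 1 library left out. The cause was not tested. NR4A2 stayed called under the alternatives run. Of 172 named calls, 121 to 157 were kept with 1 library left out, 162 with DESeq2, and none changed sign. NR4A1, not called, changed sign to -0.010, -0.00779, -0.022 and -0.040 without shNT replicate 1, shNT replicate 2, shNR4A2 replicate 2 and shNR4A2 replicate 3 (range to 0.14), and A4GALT to 0.015 without shNT replicate 1 (range from -0.44). Replicate numbers were not taken as pairs: same-numbered libraries correlated at 0.325, 0.237 and 0.069 over 17720 genes, although over 9030 genes of at least 10 CPM the values were 0.621, 0.465 and 0.349, each best with its own number. The block kept 3341 of the 3344 calls; whether the numbers pair the samples is not given by the labels, so neither fit is preferred for genes without a call in the first.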

Other observations

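Genes known as targets of NRF2, the transcription factor of the oxidative stress response, were listed after the level of AKR1C2 had been seen. Of 27 tested, 19 were higher in shNR4A2 cells and none lower (over all genes tested, 9.29% were higher), with a median log2 fold change of 0.57. The list holds AKR1C2, which prompted it, and its neighbours AKR1C1 and AKR1C3; without these, 16 of 24 were higher and none lower, with a median of 0.56. NQO1, a quinone reductase, was at 84.4, 74.1 and 89.4 TPM in shNT and at 170, 226 and 230 TPM in shNR4A2 libraries (log2 1.30, adjusted p = 1.98e-06). GCLM, the modifier subunit of the ligase that starts glutathione synthesis, rose by 0.96, while its catalytic subunit GCLC differed by 0.07 (adjusted p = 0.645). TXNRD1 rose by 0.83, SRXN1 by 1.58 and OSGIN1 by 1.88. HMOX1, heme oxygenase, varied within both groups and did not pass (log2 1.63, adjusted p = 0.111), and NFE2L2, which encodes NRF2, differed by 0.16 (adjusted p = 0.423).

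Some large changes lay side by side on a chromosome, a pattern picked after values were seen. BHLHE22, at 22.7, 19.98 and 21.4 TPM in shNT and 136, 131 and 140 TPM in shNR4A2 libraries (log2 2.64, adjusted p = 1.51e-09), overlaps BHLHE22-AS1, and without a known strand setting their reads cannot be told apart. CCN2, the matricellular protein CTGF, fell from 1383, 1172 and 1372 TPM to 505, 467 and 404 TPM (log2 -1.54), beside ENSG00000227220, which overlaps it. It averaged 525 TPM in shNR4A3 cells. On chromosome 21, HUNK, a protein kinase gene, fell by 2.97 (adjusted p = 0.000102), and the neighbouring LINC00159 had 6, 13 and 8 counts in shNT and 0 in each shNR4A2 library, at least 8.98-fold lower against a floor of 3 counts over the group. LINC00159 had 0 counts in all 12 shNR4A2 libraries of the series, 98 in the 12 shNT and 16 in the 12 shNR4A3 libraries. A change of the line and an effect of NR4A2 cannot be told apart here.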
